A study of Mus musculus with 24 samples.

Results

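The 9 genes described here carry water, urea and the vasopressin signal in the mouse kidney. They were taken by symbol from a table of 19426 genes: the aquaporins Aqp1, Aqp2, Aqp3, Aqp4, Aqp6, Aqp7 and Aqp11, the vasopressin V2 receptor gene Avpr2, and the urea transporter gene Slc14a2. RNA of whole kidneys was sequenced in 24 libraries, 8 after vehicle, 8 after PTH (the fragment hPTH(1-34) of human parathyroid hormone) and 8 after the agent that the sample titles call Ykl (written YKL), a small compound that blocks the salt-inducible kinases, or SIKs. The mice were C57BL6, 13 weeks old by the study's methods and labelled male, with no engineered allele given for any group. Per the methods, kidneys were taken 1 h after PTH at 300 µg/kg and 3 h after YKL at 45 mg/kg, so agent, time and dose differ together between the treated groups. The methods state no time for vehicle, so time after injection may also differ between vehicle and either treated group. The sources differ on the route of PTH (subcutaneous or intraperitoneal), and the study calls YKL relatively promiscuous among kinases, so a change with it need not come from SIKs.

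Water leaves the nephron through aquaporins, pores that line up along its segments. AQP1 is the constitutive water channel of the proximal tubule and thin descending limb. AQP7, which also passes glycerol, and AQP11, which sits inside the cell, belong to the proximal tubule. In the collecting duct, vasopressin binds the V2 receptor of principal cells, cAMP rises, protein kinase A acts, and AQP2 moves to the apical membrane, while AQP3 and AQP4 let water out on the basolateral side. The same hormone opens the urea transporters made from Slc14a2 in the inner medulla. AQP6 is found in vesicles of intercalated cells, the acid-base cells of the same duct. PTH also signals through cAMP, but at its own receptor.

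Values are FPKM (fragments per kilobase of transcript, relative to the mapped total), which can be compared between genes as levels per length. Depth, estimated from the smallest steps between values, was about 6090000 to 7570000 fragments per library, and all 9 genes passed the filter on low values (a mean of at least 0.5 FPKM), which left 13991 genes to test. Aqp7, the lowest of the 9, rested on about 92 to 186 fragments per library and Aqp1, the highest, on about 2687 to 4376. Kidney markers were abundant (vehicle mean of Slc34a1 1176 and of Umod 1042 FPKM). Xist was at 76.3 to 114 FPKM and the Y-linked Ddx3y at no more than 0.1 FPKM in all 24 libraries, which goes against the label male. The series text gives 6 per treatment where 8 libraries are listed, so it is not known that every library is a separate animal, and p-values measure the spread between libraries, which may be technical.

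In vehicle kidneys the levels spanned from Aqp1, at 176 ± 17.9 FPKM (mean ± SD, n = 8), to Aqp7, at 7.43 ± 1.1 FPKM. Aqp1 stood above 96.7% of the tested genes in vehicle kidneys and Aqp7 above 46.0% of them. Between them came Aqp2 (73.8 ± 29.6), Aqp3 (54.0 ± 6.87), Aqp6 (39.0 ± 8.37), Slc14a2 (33.9 ± 9.01), Aqp4 (24.5 ± 10.9), Aqp11 (18.6 ± 2.27) and Avpr2 (10.05 ± 2.12 FPKM). Only the steps from Aqp1 to Aqp2 and from Aqp11 to Avpr2 were free of overlap between the 8 libraries of each gene. All other neighbours in this order overlapped, and Aqp4 lay above Aqp11 in 3 of 8 vehicle libraries although its mean was higher. The other aquaporins listed (Mip, Aqp5, Aqp8, Aqp9 and Aqp12) had group means under 0.5 FPKM and were not tested.

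**Figure D1:**
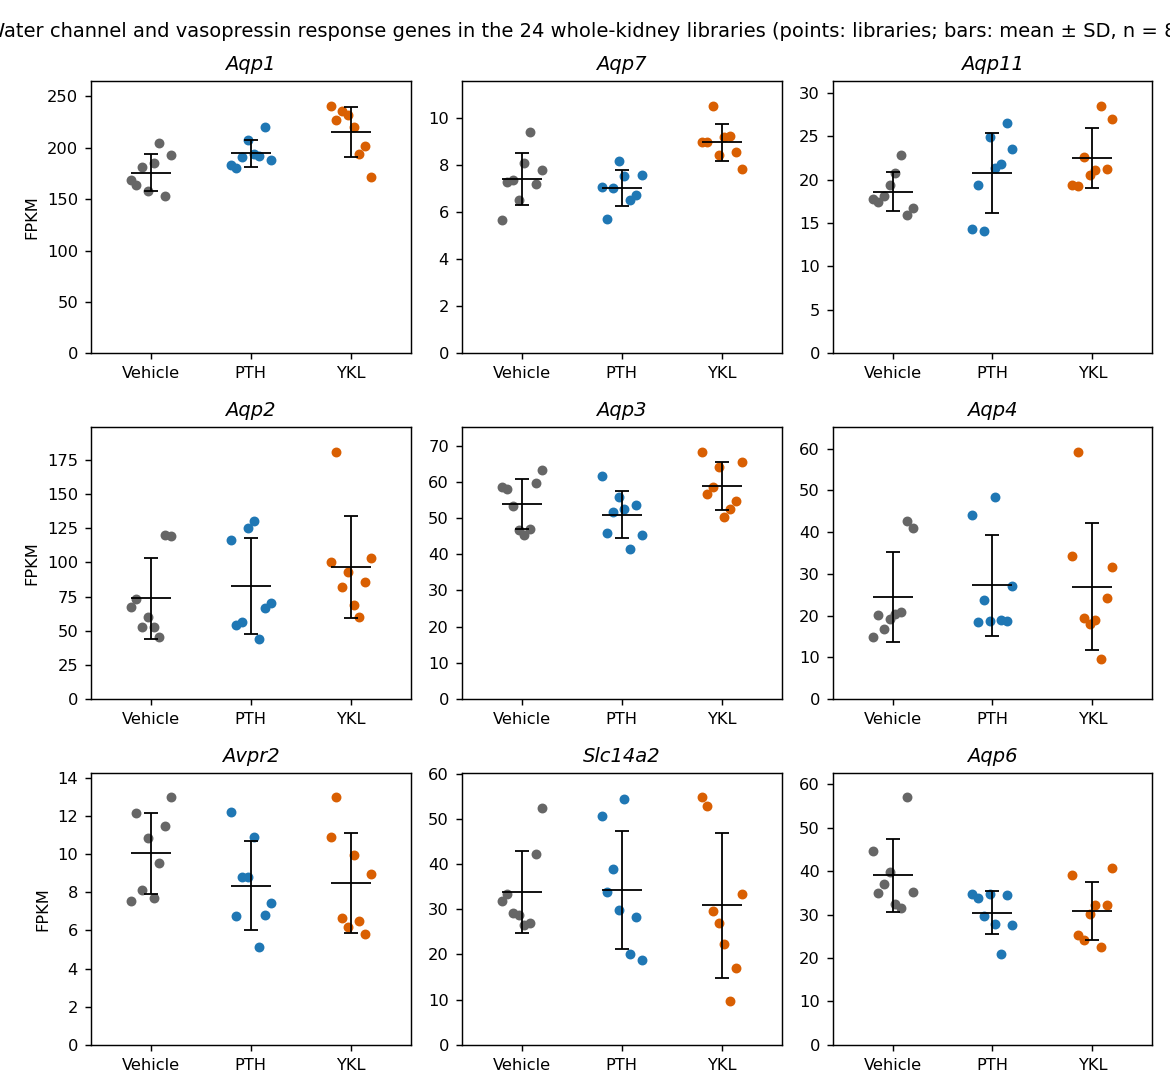
FPKM of each gene (vertical axis, linear from 0) in every library, by treatment. Points are libraries, horizontal marks and bars are the mean ± SD of 8 libraries. Aqp1 and Aqp7 sit higher with YKL, while Aqp2, Aqp4 and Slc14a2 are spread widely within every group, up to 181 FPKM for Aqp2.

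Of the 9 genes, 0 were called in the comparison of PTH with vehicle at an adjusted p below 0.05 (limma), where 17.1% of all genes tested were called (6.0% higher and 11.1% lower). Before adjustment, 2 of the 9 had p below 0.05 (Aqp1 and Aqp6). With YKL, 2 of 9 were called against vehicle, both higher (Aqp1 and Aqp7), where 17.7% of all genes were called (6.26% higher and 11.5% lower). Before adjustment there were 4 of the 9, with Aqp6 and Aqp11 added. Against PTH, YKL-treated kidneys had 1 of 9 genes called, Aqp7, again higher, where 6.42% of all genes were called (2.84% higher and 3.58% lower). With only 9 genes, these counts are too small to set apart from the shares over all genes, and no test was made of them. The calls with YKL were all in the higher direction and rest on 2 genes against vehicle and 1 against PTH. The median log2 fold change of the 9 genes was -0.03 for PTH and 0.13 for YKL against vehicle, beside a median of -0.05 over all genes in each. The comparisons with vehicle share the same 8 vehicle libraries and are not independent of each other.

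**Figure D2:**
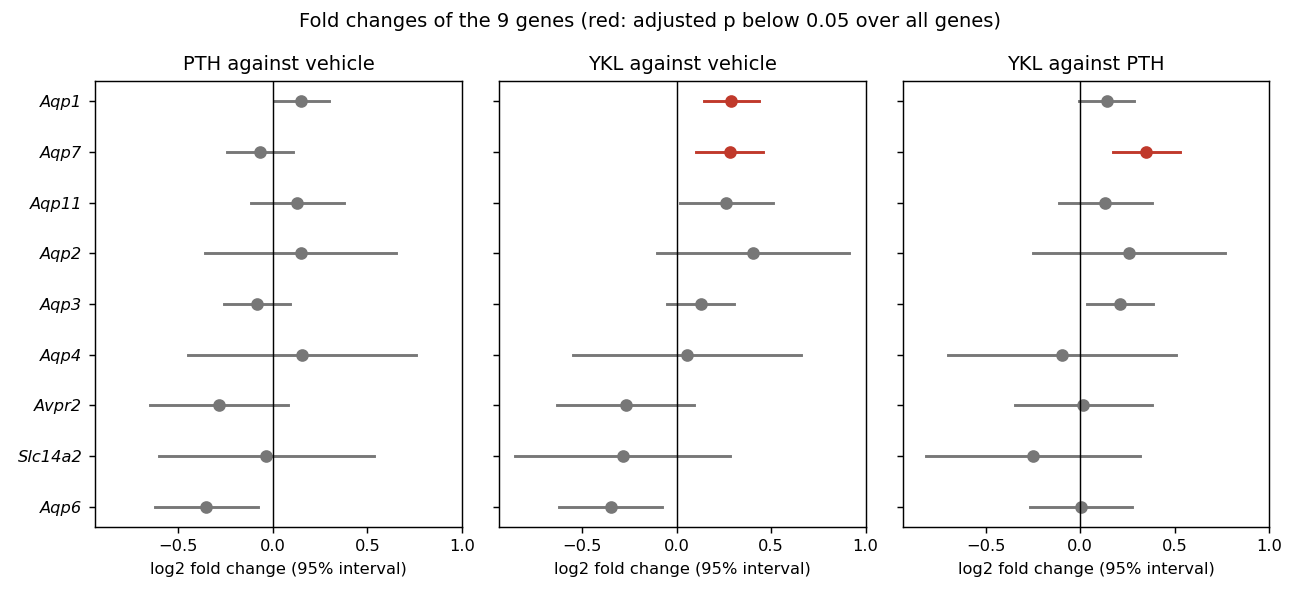
Log2 fold change (horizontal axis) of each gene with its 95% confidence interval from the limma model, in 3 comparisons. Red marks an adjusted p below 0.05 over all 13991 genes: Aqp1 and Aqp7 for YKL against vehicle and Aqp7 for YKL against PTH.

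Aqp1 (chr6:55336299-55348555, plus strand, GRCm38.p6), the main water channel of the proximal tubule, was higher after YKL. It ranged from 153 to 204 FPKM with vehicle (median 175), from 181 to 221 with PTH (median 192) and from 171 to 241 with YKL (median 223.5). The ranges overlapped, with 7 of 8 YKL libraries above the vehicle mean, 5 of them above every vehicle library, and 1, YKL replicate 8, below that mean. The difference was 1.22-fold (log2 0.29, SE 0.070, 95% interval of the fold 1.11 to 1.35, limma adjusted p = 0.00622). All 8 PTH libraries were also above the vehicle mean, at 1.11-fold (log2 0.15, SE 0.070), but this was not called (adjusted p = 0.149). The step from PTH to YKL, 0.14 on the log2 scale (95% interval -0.01 to 0.28), was not called either (adjusted p = 0.264).

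Aqp7 (chr4:41033074-41048237, minus strand), the glycerol and water channel of the proximal straight tubule, was the one gene of the 9 called between the agents. It ran from 5.69 to 9.43 FPKM with vehicle (median 7.34), from 5.70 to 8.21 with PTH (median 7.06) and from 7.86 to 10.5 with YKL (median 8.995). Every YKL library was above the means of both other groups, and 7 of 8 were above the highest PTH library, while 1 was above the highest vehicle library. YKL was 1.21-fold above vehicle (log2 0.28, SE 0.086, adjusted p = 0.0244) and 1.27-fold above PTH (log2 0.35, SE 0.086, adjusted p = 0.0135), and PTH was at -0.07 (SE 0.086, adjusted p = 0.656) against vehicle. The call against vehicle was lost without vehicle replicate 1 (log2 0.23, adjusted p = 0.0536), without vehicle replicate 4 (0.26, adjusted p = 0.0532) and without YKL replicate 3 (0.25, adjusted p = 0.0515).

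Aqp11 (chr7:97726379-97738247, minus strand), the intracellular aquaporin whose loss in mice gives cystic proximal tubules, had no call. It spanned 15.9 to 22.8 FPKM with vehicle (median 18.0), 14.1 to 26.5 with PTH (median 21.6) and 19.3 to 28.5 with YKL (median 21.2). All 8 YKL libraries exceeded the vehicle mean but only 2 exceeded the highest vehicle library, and PTH libraries lay on both sides of the vehicle range. The log2 fold change with YKL was 0.26 (SE 0.119, adjusted p = 0.125) in the model of 3 groups and the same with an adjusted p of 0.0385 in a fit of vehicle and YKL alone. With the level of proximal tubule S1 and S2 markers as a covariate, described next, it was 0.0255 (adjusted p = 0.956).

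Some markers of the early proximal tubule were also higher in the YKL group. Of 6 markers of the convoluted S1 and S2 segments, 2 were called higher with YKL against vehicle, Gatm (creatine synthesis, log2 0.48) and Slc34a1 (phosphate transport, log2 0.42), and 0 lower, where 6.26% of all genes were called higher. Of 4 markers of S3, the straight segment where AQP7 is found, 0 were called in limma with YKL against vehicle, and before adjustment 0 had p below 0.05 (median log2 fold change -0.01). Slc7a13 and Cyp7b1 were low (vehicle means 0.99 and 1.49 FPKM, SE 0.308 and 0.172), so these 2 could show only a large change. Slc5a1 and Atp11a (31.9 and 64.7 FPKM) had log2 fold changes of -0.08 and 0.12 (SE 0.075 and 0.089). The summed level of the 6 S1 and S2 markers was 1952 to 2307 FPKM with vehicle, 1866 to 2659 with PTH and 2497 to 3434 with YKL, with no overlap between vehicle and YKL, and none of the 6 was at 0 in any group. Most of this sum came from the 2 called markers, Slc34a1 (vehicle mean 1176, YKL 1585 FPKM) and Gatm (386 and 533). The others, not called, were Slc5a2 (176 and 182), Slc5a12 (170 and 192), Lrp2 (166 and 181) and Cubn (48.8 and 61.5 FPKM). In a bulk sample, more cells of a type and more RNA per cell cannot be told apart. With the mean log2 level of these 6 markers as a covariate, chosen after the calls were seen, the fold changes of Aqp1 and Aqp7 with YKL were both 0.31 on the log2 scale and neither was called (adjusted p = 0.121 and 0.217). That covariate overlaps the grouping itself, and under it the genes called for YKL against vehicle went from 2481 to 171 over all genes. Library by library, with group means removed, the S1 and S2 score had r = -0.06 with Aqp1 and -0.08 with Aqp7, and r = 0.45 with Aqp11 (24 libraries). Aqp1 had larger r with other marker scores: 0.61 with thick ascending limb, -0.66 with intercalated cells and 0.42 with S3. The part of each was not tested.

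Among the collecting duct genes, Aqp2 (chr15:99579056-99584545, plus strand), the channel that vasopressin moves to the apical membrane, varied most between libraries of one group in absolute level. It ran from 45.4 to 120 FPKM with vehicle (median 63.7), from 44.0 to 131 with PTH (median 68.8) and from 60.0 to 181 with YKL (median 89.5). In each group a few libraries stood far above the rest: vehicle replicates 7 and 8, PTH replicates 1, 4 and 5, and YKL replicate 2. The log2 fold change was 0.15 for PTH (SE 0.246, adjusted p = 0.751) and 0.40 for YKL (SE 0.246, 95% interval -0.10 to 0.91, adjusted p = 0.268), neither called. An interval this wide leaves room for a 1.88-fold rise or a fall to 0.932 of the vehicle level with YKL.

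Aqp3 (chr4:41092724-41098183, minus strand), the basolateral water and glycerol channel of principal cells, was far steadier. Its libraries ran from 45.3 to 63.2 FPKM with vehicle (median 55.6), from 41.4 to 61.6 with PTH (median 52.1) and from 50.2 to 68.4 with YKL (median 57.7). The groups overlapped, with 7 of 8 YKL libraries above the PTH mean and 3 above the highest PTH library. The largest of its differences, YKL against PTH, was 0.21 on the log2 scale (SE 0.086, adjusted p = 0.149), not called.

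Aqp4, the other basolateral water channel, showed no difference beyond its spread. It spanned 14.9 to 42.6 FPKM with vehicle (median 20.3), 18.4 to 48.3 with PTH (median 21.5) and 9.55 to 59.3 with YKL (median 21.8), so that both the lowest and the highest of the 24 libraries had received YKL. The log2 fold changes were 0.15 for PTH and 0.06 for YKL (SE 0.293 each, adjusted p = 0.785 and 0.921).

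Avpr2, the Gs-coupled vasopressin receptor, was at 7.53 to 12.97 FPKM with vehicle (median 10.2), 5.14 to 12.2 with PTH (median 8.12) and 5.81 to 12.97 with YKL (median 7.82). In each treated group 4 of 8 libraries were below the lowest vehicle library, and no treated library was above the highest. The fold changes were -0.28 for PTH and -0.27 for YKL on the log2 scale (SE 0.176 each, adjusted p = 0.297 and 0.311), not called. Avpr2 (chrX:73891765-73894428, plus strand) shares 2347 of its 2886 annotated exon bases, 81.3%, with the gene Arhgap4 on the opposite strand. No strand setting is stated, so the reads of the pair may not be separable and the level of Avpr2 is uncertain. Arhgap4 itself had a mean of 2.82 FPKM with vehicle and 2.51 with PTH, and was not called in any comparison.

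Slc14a2, the source of the vasopressin-regulated urea transporters, had the widest relative spread after YKL apart from Aqp4. Its libraries ran from 26.4 to 52.4 FPKM with vehicle (median 30.5), from 18.8 to 54.3 with PTH (median 31.8) and from 9.74 to 54.7 with YKL (median 28.3). The highest YKL library was 5.62 times the lowest, against 1.98 times with vehicle, and the vehicle range lay inside that of YKL. The log2 fold changes, -0.03 for PTH and -0.28 for YKL (SE 0.276 each), were not called (adjusted p = 0.956 and 0.518).

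Aqp6 (chr15:99598468-99605478, plus strand), the intercalated cell member and the neighbour of Aqp2 at a distance of 13922 bases, was the one gene with lower means in both treated groups at an unadjusted p below 0.05. It ran from 31.4 to 57.0 FPKM with vehicle (median 36.1), from 20.8 to 34.8 with PTH (median 31.6) and from 22.5 to 40.6 with YKL (median 31.1). All 8 PTH libraries lay below the vehicle mean and 4 below every vehicle library, and with YKL these counts were 7 and 4, so the groups overlapped in both cases. The log2 fold change was -0.35 for either agent (SE 0.132), and neither passed after adjustment over all genes (adjusted p = 0.0690 and 0.0685). For YKL it passed without PTH replicate 6 (-0.35, adjusted p = 0.0484), without YKL replicate 1 (-0.40, adjusted p = 0.0375) and without YKL replicate 8 (-0.41, adjusted p = 0.0339). It was smaller, and not called, without the 4 libraries of highest urothelium score (-0.23, adjusted p = 0.255), without the 5 of highest inner medulla score (-0.24, adjusted p = 0.288) and with the S1 and S2 score as a covariate (-0.05, adjusted p = 0.912).

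Of 8 markers of intercalated cells, 4 were called lower and 0 higher with YKL against vehicle, where 11.5% of all genes were called lower. They were Foxi1, the transcription factor that specifies these cells (19.8 ± 2.69 to 12.7 ± 3.98 FPKM, log2 -0.67, adjusted p = 0.00146), and the proton pump subunits Atp6v1g3 (-0.44), Atp6v1b1 (-0.24) and Atp6v1c2 (-0.22). With PTH, 1 was lower (Atp6v1b1, -0.20) and 0 higher, where 11.1% of all genes were lower. Foxi1 did not run with Aqp6 there: its mean was 25.0 FPKM with PTH (log2 0.34, adjusted p = 0.0836, not called), and it was lower with YKL than with PTH (log2 -1.01, adjusted p = 2.2e-05), while Aqp6 had -0.35 with each agent. Other cell types had lower markers with YKL too. Of 8 endothelial markers, 3 were called lower and 0 higher against vehicle (median -0.42), and of 3 leukocyte markers tested, 1 was called lower (Ptprc, -0.75). The summed level of the 8 intercalated cell markers was 274 to 318 FPKM with vehicle, 253 to 297 with PTH and 218 to 274 with YKL, with none at 0. Whether Aqp6 follows these markers was not tested between groups. Within groups Aqp6 had r = 0.71 with the mean log2 level of intercalated cell markers and 0.64 with that of principal cell markers over 24 libraries (group means removed). This is a description, as both values of a point come from the same tissue piece and library.

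Libraries with high Aqp2 and Aqp4 also had high levels of inner medulla markers. A score, the mean log2(FPKM + 0.1) of the inner medulla markers Cryab, Ptgs1, Wnt7b and Akr1b3, was 5.70 to 6.27 in 5 libraries (YKL replicate 2, PTH replicates 5 and 1, vehicle replicates 7 and 8) and 3.13 to 4.88 in the other 19. Those 5 libraries held Aqp4 at 40.9 to 59.3 FPKM, all above the 34.2 FPKM of the highest of the 19. They held Aqp2 at 117 to 181, Slc14a2 at 42.2 to 54.3 and Avpr2 at 10.9 to 12.97 FPKM, against medians of 67.4, 28.7 and 7.72 FPKM in the 19. Markers of urothelium, the lining of the renal pelvis, were also highest in 4 of the 5 (all but vehicle replicate 8). Each treatment had at least 1 of the 5, and 0 of the 4 markers were called in limma in any comparison (before adjustment, 0 had p below 0.05).

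With group means removed, the score had r = 0.94 with Aqp4, 0.89 with Aqp2, 0.73 with Slc14a2, 0.75 with Avpr2 and 0.52 with Aqp3 over the 24 libraries. The other genes were at -0.16 for Aqp1, 0.03 for Aqp7, 0.27 for Aqp6 and -0.44 for Aqp11. Other marker scores ran with the same genes. The urothelium score had r = 0.82 with Aqp2 and 0.79 with Aqp4, and the endothelium score 0.58 and 0.70. Slc14a2 had r = 0.73 with the endothelium score and 0.71 with the principal cell score, beside 0.73 with that of the inner medulla, and the part of each was not tested. These are descriptions with no test, since both values of a point come from the same tissue piece and the 5 high libraries form a separate cluster.

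**Figure D3:**
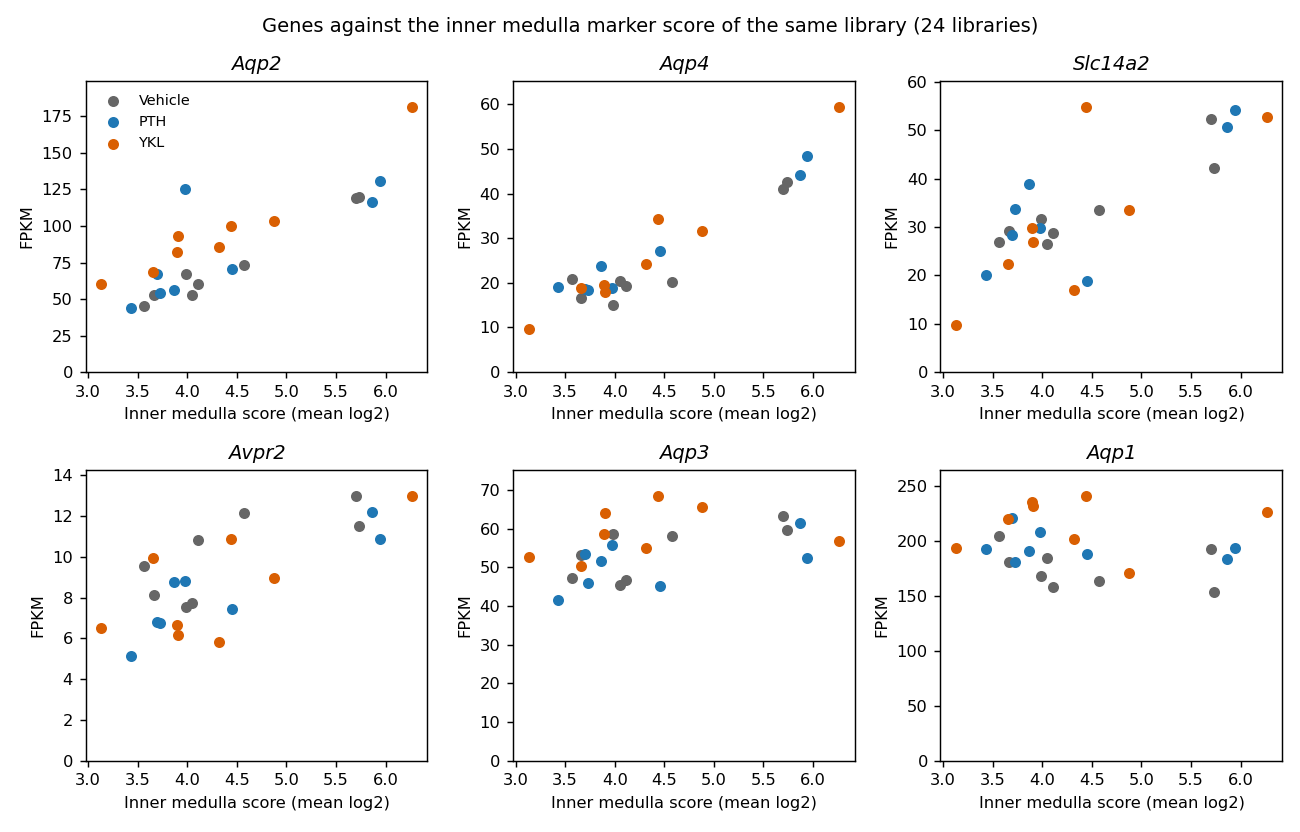
FPKM of 6 genes (vertical axis, linear from 0) against the inner medulla score of the same library (horizontal axis, mean log2). Points are the 24 libraries, coloured by treatment. The 5 libraries with scores of 5.70 to 6.27 carry high Aqp2, Aqp4, Slc14a2 and Avpr2 but not high Aqp1, and 1 PTH library has Aqp2 at 125 FPKM with a score of 3.97.

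With the inner medulla score as a covariate, the SE of Aqp2 for YKL against vehicle went from 0.246 to 0.118, the log2 fold change was 0.46 and the gene was called (adjusted p = 0.00844). PTH against vehicle was not called in that fit (0.17, adjusted p = 0.336). With other scores as the covariate, Aqp2 for YKL against vehicle was not called in limma. These were the principal cell score (0.38, adjusted p = 0.173) and the S1 and S2 score (0.92, adjusted p = 0.155). Of 12 alternatives besides single left-out libraries, 1 gave the call, the inner medulla covariate. Without the 5 libraries, a choice made after the scores were seen, Aqp2 had a log2 fold change of 0.53 with YKL against vehicle. The score that left them out ran with Aqp2 itself, so no test of Aqp2 is read from that fit. In the same limma fit Aqp1 stayed called (0.27, adjusted p = 0.0370), and Aqp7 was not called against vehicle (0.29, adjusted p = 0.0785) or against PTH (0.37, adjusted p = 0.0535).

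Aqp2 was also set against principal cell markers within each library. The log2 level of Aqp2 minus the mean log2 level of 7 principal cell markers (Scnn1b, Scnn1g, Fxyd4, Hsd11b2, Npnt, St6gal1 and Apela) was 1.09 ± 0.47 with vehicle, 1.27 ± 0.53 with PTH and 1.49 ± 0.40 with YKL (SD, n = 8 each). All 8 YKL libraries were above the vehicle mean, yet the 2 vehicle libraries of high inner medulla score exceeded 7 of the 8. All 5 libraries of high inner medulla score were at 1.73 to 2.42 and the other 6 vehicle libraries at 1.11 or less, so this measure still varied with the inner medulla markers. The difference between YKL and vehicle, 0.40, did not pass an exact two-sided permutation test (p = 0.0915, 0.275 adjusted over 3 comparisons), nor did PTH against vehicle (0.18, p = 0.464) or YKL against PTH (0.22, p = 0.377). Without the 5 libraries the difference was 0.50. They were left out after the fact by a score that ran with Aqp2, and both vehicle libraries that overlapped YKL were among them, so no test is read from it. Of the markers themselves, 1 of 7 was called higher with YKL (Scnn1g, an epithelial sodium channel subunit, log2 0.25), 0 with PTH, and their summed level was 287 to 349, 268 to 356 and 239 to 369 FPKM in the 3 groups.

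**Figure D4:**
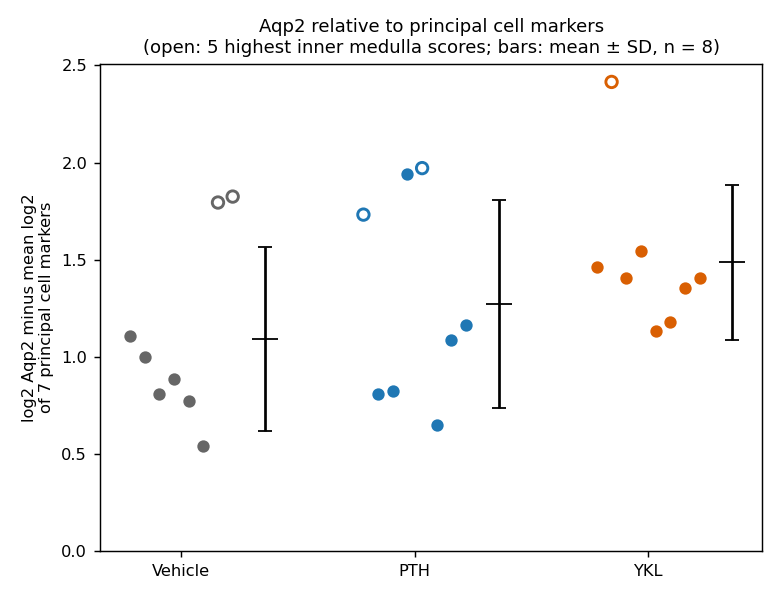
Log2 level of Aqp2 minus the mean log2 level of 7 principal cell markers (vertical axis) in each library, by treatment. Open points are the 5 libraries of highest inner medulla score, bars are the mean ± SD of 8. YKL libraries lie above the vehicle mean of 1.09, and the open points are near or at the top of every group.

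One library had high Aqp2 without high inner medulla markers. PTH replicate 4 held Aqp2 at 125 FPKM with Aqp4 at 18.8 and Slc14a2 at 29.9 FPKM, and its ratio of Aqp2 to Aqp4, 6.65, was the highest of the 24. YKL replicate 6, with the lowest score (3.13), had the next ratio, 6.28, from the lowest Aqp4 (9.55 FPKM) and the lowest Slc14a2 (9.74 FPKM) of all libraries while its Aqp2 was 60.0 FPKM. YKL replicate 1 had the highest Slc14a2 of all, 54.7 FPKM, at a score of 4.44.

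Between the 9 genes, pairs differed widely in how they ran together over the 24 libraries (group means removed). Aqp2, Aqp4, Avpr2 and Slc14a2 had r of 0.70 to 0.79 with each other, and Aqp3 had 0.44 to 0.69 with these 4. Aqp1 and Aqp7 had r = 0.55 with each other and between -0.03 and 0.21 with the same 4. Aqp11 had negative r with Aqp2, Aqp3, Aqp4, Avpr2 and Slc14a2, from -0.57 with Slc14a2 to -0.30 with Aqp2. With the other proximal tubule genes its r over all 24 libraries was 0.07 (Aqp1) and 0.21 (Aqp7). The 0.07 with Aqp1 pooled opposite values: 0.59 within vehicle, 0.64 within PTH and -0.80 within YKL libraries. With Aqp7 these were 0.54, 0.19 and -0.12. Aqp6, of another cell type, had 0.58 with Aqp3, above the 0.44 of Aqp3 with Aqp4, and -0.41 with Aqp7. Both values of each point come from the same library and depth, and no test was made of them.

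**Figure D5:**
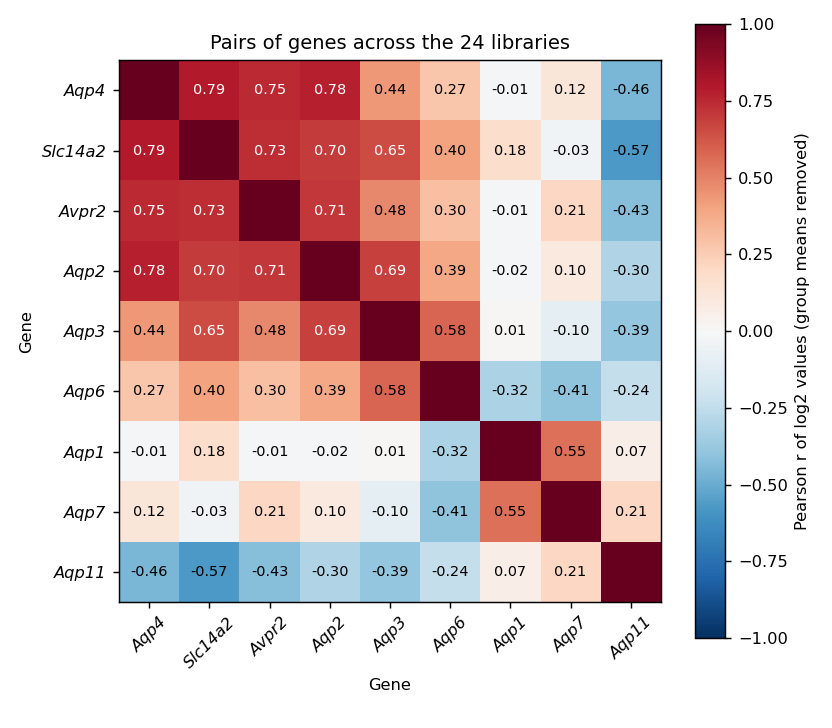
Pearson r between each pair of the 9 genes over 24 libraries, on log2(FPKM + 0.1) with group means removed (colour and number). The 4 genes Aqp4, Slc14a2, Avpr2 and Aqp2 form a block of 0.70 to 0.79, and Aqp1 pairs with Aqp7 at 0.55.

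Of all genes tested, those whose levels ran most like each of the 9 over the 24 libraries (Pearson r, group means removed) were Gstm2 (0.92), Rabgef1 and Esyt1 (0.91 each) for Aqp2, and Tspan6, Tmem30b and Ndrg4 (0.96 each) for Aqp4. For Avpr2 they were Btg1 (0.92), Slco4a1 (0.85) and Slc31a2 (0.83), and for Slc14a2 they were Fam101b and Dnm3 (0.90 each) and Scin (0.89). Anxa4 (0.82) led for Aqp3 and was followed by Adcy6 (0.79), the adenylyl cyclase that makes cAMP in collecting duct cells. The leading genes for the others were Mtor for Aqp1 (0.77), Map7d1 for Aqp6 (0.77), Tsacc for Aqp7 (0.70) and Tmem143 for Aqp11 (0.84). Each is the top of 13990 candidates.

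The pathway around the 9 genes was read from lists of its other parts. Of 15 genes of V2 receptor signalling, 4 were called higher and 0 lower with PTH, a median log2 fold change of 0.07, beside 6.0% of all genes higher and 11.1% lower. Pde4d, a phosphodiesterase that breaks down cAMP, went from 7.49 ± 1.33 to 10.4 ± 1.05 FPKM (log2 0.49, SE 0.097, adjusted p = 9.7e-04). The regulatory and catalytic subunits of protein kinase A, Prkar1a and Prkaca, rose by 0.17 and 0.21, and Avpr1a, the V1a vasopressin receptor, by 0.43 on the log2 scale. With YKL, Prkaca was higher (26.2 ± 1.40 to 32.9 ± 1.82 FPKM, log2 0.33, adjusted p = 0.00349) and Arrb2, a β-arrestin that ends receptor signalling, was lower (-0.35, adjusted p = 0.0352), 1 each way of 15, beside 6.26% of all genes higher and 11.5% lower. Avpr1a is a different vasopressin receptor, so its call is not one of the V2 receptor's own pathway. The other proteins named here serve many receptors, and the list is not particular to principal cells.

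Of 15 genes that move or hold AQP2 in its vesicles, PTH gave 1 higher and 1 lower and YKL gave 1 higher and 4 lower, with median log2 fold changes of -0.04 in both. Over all genes 17.1% were called with PTH and 17.7% with YKL, so 2 of 15 with PTH is no more than the background, and 5 of 15 with YKL is above it on few genes. Hspa8, a constitutive chaperone that binds AQP2 during its uptake, rose by 0.26 on the log2 scale with PTH (adjusted p = 0.0152) and was lower with YKL than with PTH (-0.47, adjusted p = 1.9e-04). Vamp8, a vesicle SNARE, fell with either agent (271 ± 18.0 FPKM with vehicle, 233 ± 41.4 with PTH and 230 ± 14.7 with YKL, -0.24 each). YKL also lowered Stx4a, the target-membrane SNARE syntaxin 4 (-0.32), and Rab11a, a recycling GTPase (-0.13), while Vamp2, the SNARE of AQP2 vesicles, was higher (0.23).

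The lists around water balance hold 5 to 7 genes each, and 0 or 1 gene of each was called against vehicle, beside 17.1% of all genes with PTH and 17.7% with YKL. Of 7 tonicity response genes, 1 was lower with PTH (Ranbp3l, log2 -0.50, adjusted p = 0.0226) and 1 higher with YKL (the taurine transporter gene Slc6a6, 0.19, adjusted p = 0.0482). Of 6 collecting duct transcription factors, Tfcp2l1, which helps set intercalated and principal cell identity, was lower with PTH (62.1 ± 5.43 to 51.5 ± 10.2 FPKM, log2 -0.29, adjusted p = 0.0283), and 0 were called with YKL. Of 5 genes of glycerol handling, the partner process of Aqp7 and Aqp3, the hormone-sensitive lipase gene Lipe was lower with PTH (7.30 ± 2.23 to 4.48 ± 1.05 FPKM, log2 -0.68, adjusted p = 0.00444), and 0 were called with YKL. Of 5 genes of countercurrent transport, 0 were called in limma in any comparison, and before adjustment 0 had p below 0.05. Fat cell markers, a possible other source of Lipe, summed to 0.08 to 34.7 FPKM with vehicle (median 0.745) and 0.00 to 61.6 with PTH (median 0.555). Their part was not tested.

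Promoter windows were found in the RefSeq table (GRCm38.p6) for 7 of the 9 genes, in 8 windows, and were read for motifs on both strands because cAMP acts on transcription through CREB. The full cAMP response element TGACGTCA was in 0 of the 8 windows and in 1.79% of all 32851 windows. Its half-site TGACG, which is contained in the full element, was in 1 of the 8, that of Aqp2, and in 20.8% of all. AP-1 (TGANTCA) was in 0 of the 8 and 7.81% of all, and the TATA box (TATAAA) was in 2 (Aqp3 and Avpr2) and 13.6% of all. The match of Avpr2 was on the strand opposite to the gene (read as TTTATA). The windows of Avpr2 (chrX:73891852-73892101) and Aqp6 (chr15:99600950-99601199) lie inside the gene spans given above, as does a window of Aqp7 (chr4:41047963-41048212). That of Avpr2 overlaps an exon of Arhgap4, and that of Aqp7 overlaps an exon of Aqp7. A match is a description of letters and not a bound site. The windows upstream of Aqp2, the textbook cAMP-regulated gene of the group, and of Aqp1, the most abundant of the 9 and called with YKL, are given here as 240 bases each, in lower case, with the half-site on the minus strand (read as CGTCA, 211 bases before the start) in capitals.
Aqp2 promoter (chr15:99578806-99579045, plus strand): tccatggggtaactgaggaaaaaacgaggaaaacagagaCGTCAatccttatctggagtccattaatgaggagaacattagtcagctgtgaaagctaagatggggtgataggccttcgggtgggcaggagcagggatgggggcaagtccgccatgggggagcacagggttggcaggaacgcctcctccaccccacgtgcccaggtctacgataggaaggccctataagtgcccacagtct
Aqp1 promoter (chr6:55336049-55336288, plus strand): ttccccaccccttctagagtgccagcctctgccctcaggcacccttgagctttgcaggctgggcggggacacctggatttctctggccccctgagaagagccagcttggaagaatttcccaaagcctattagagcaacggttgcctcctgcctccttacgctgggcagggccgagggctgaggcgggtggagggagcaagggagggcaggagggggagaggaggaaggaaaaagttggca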

How the data were processed

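RNA of whole kidneys was sequenced on BGISEQ500. The authors deposited 1 table of FPKM, rounded to 2 decimals, for 24 libraries. The submitters' notes list STAR 2.7.2b, RSEM 1.3.0, DESeq2, mm10 and GRCm38, without roles. Annotation release and strandedness were not given in the sources used here. Because FPKM depends on the library total, changes of abundant genes can shift others. A value column equal to PTH replicate 3 was not used (1 column). Of 19426 genes, 99.7% matched a RefSeq identifier, and 25 symbols turned into dates were restored.

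Libraries were grouped by labelled treatment. The model used log2(FPKM + 0.1), a scale on which changes of low genes are understated. Genes whose overall mean reached 0.5 FPKM (13991) were fitted in limma 3.58.1 (R 4.3.3, trend, 3 groups in one model). P-values were adjusted by Benjamini-Hochberg over all genes and called below 0.05. Aqp2 relative to markers used an exact permutation test (scipy 1.17.1). The model was tested on simulated data. Depth is an estimate: 79.9% to 86.8% of low values per library lay within 0.2 of a whole number of fragments, and no counts were recovered.

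Members, 19 gene lists and alternatives were chosen with earlier results of these data known. Named were all 9 genes, up to 4 genes per list and comparison with the smallest adjusted p, and the 3 genes most correlated with each of the 9. 1 gene of the inner medulla and countercurrent transport lists is not reported here, and both lists were used without it. Arhgap4 was added after its overlap was seen. Alternatives covered the pseudocount (1 FPKM), filter, scaling, weights, replicate block, covariates and left-out libraries. Added after seeing the data were the proximal tubule covariate and the fit without 5 libraries.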

Additional observations from a re-analysis of the deposited data

Results flagged for a closer look

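In a check of 30 groups of values for a library far from the rest of its group (Dixon's criterion, which chance passes in about 1 in 20 groups), 2 stood out, both in YKL replicate 2. Aqp2 was at 181.09 FPKM there, and the next YKL library was at 103 FPKM. The log2 level of Aqp2 relative to principal cell markers was 2.415 there, and the next was at 1.55. The same library had the highest inner medulla score of the 24 (6.27), the highest Aqp4 (59.3 FPKM) and one of the 4 highest urothelium scores. Its Aqp1 (227 FPKM) and Aqp7 (9.0 FPKM) lay inside the range of the other YKL libraries. Without it, the Aqp2 fold change of YKL against vehicle on the log2 scale was 0.27 (limma adjusted p = 0.476).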

How the results depend on the processing

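For PTH against vehicle, with 839 genes called higher and 1558 lower, median-ratio scaling gave 1097 and 1102 and quantile normalization 1051 and 1332. For YKL against vehicle, with 876 and 1605, these gave 1164 and 1151, and 1156 and 1394. The 2481 genes called for YKL against vehicle became 3834 with library weights, 1482 without the 5 libraries of highest inner medulla score and 171 with the proximal tubule score as a covariate. The 898 called for YKL against PTH became 519 in a fit of these groups alone, 564 without the 4 libraries of highest urothelium score, 515 without the 5 of highest inner medulla score and 488 with the proximal tubule score. The cause was not tested, and the fits that left out libraries or a group also held fewer libraries. Of the genes described, Aqp7 for YKL against vehicle was also not called without the 4 libraries of highest urothelium score (0.28, adjusted p = 0.0660), and Aqp3 for YKL against PTH was called with the proximal tubule score (0.34, adjusted p = 0.0305). The difference of Aqp2 from principal cell markers (YKL against vehicle) was 0.50 without the 5 libraries, a choice that removed the overlapping vehicle libraries and is no test, and it was 0.52 (adjusted p = 0.103) with inner medulla markers as the reference.

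Changes of sign concerned differences that were not called (log2 scale). Leaving out the 4 libraries of highest urothelium score gave Aqp4 -0.006 for PTH and -0.0022 for YKL against vehicle and 0.0039 for YKL against PTH, and leaving out the 5 gave 0.0039 for the last. Slc14a2 for PTH against vehicle was 0.01 with median-ratio scaling, 0.0836 with the principal cell score and 0.19 with the proximal tubule score as a covariate. For YKL against PTH, the principal cell score gave Aqp6 -0.0591 and Avpr2 -0.0706, and library weights gave Avpr2 -0.0068. The proximal tubule score gave Avpr2 0.21 and Slc14a2 0.40 for YKL against vehicle, and Aqp4 0.21, Aqp11 -0.0275 and Slc14a2 0.21 for YKL against PTH. With each of the 24 libraries left out in turn, Slc14a2 for PTH against vehicle ranged from -0.1413 to 0.0766, and Aqp4 for YKL against vehicle from -0.13 to 0.24. For YKL against PTH the ranges were -0.2843 to 0.0902 for Aqp4, -0.0717 to 0.0633 for Aqp6 and -0.0788 to 0.0999 for Avpr2. Of 648 values with a library left out, 615 kept direction and call, and of 324 under other alternatives 297 did.

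The groups share replicate numbers, but libraries of the same number did not deviate together (correlations of their deviations -0.20 to 0.20, and 1 of 24 pairs was best with its own number). With the number as a replicate block, 2203, 2265 and 760 genes were called in the 3 comparisons, and Aqp6 passed for PTH (adjusted p = 0.0198) and YKL (adjusted p = 0.0209) at the same log2 fold change of -0.35, while no other gene of the 9 changed call. Aqp6 for YKL was also called with library weights (-0.32, adjusted p = 0.0360) and with the principal cell score as a covariate (-0.36, adjusted p = 0.0177).

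Precision differed between the genes. With 8 libraries per group, the SE of a log2 fold change was 0.070 for Aqp1 and 0.293 for Aqp4, so a difference of the size called for Aqp1 was about 1 SE of Aqp4 and not detectable there.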
